A study of Mus musculus with 4 samples.

Results

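The data are 1 Visium heart section taken 14 days after MI, and the tissue described is the myocardium that still carried the most stress gene transcripts at that time. Border spots were chosen by the counts themselves. Of the 2741 spots of the section, 2036 had at least 500 unique molecular identifiers (UMIs, each standing for 1 captured mRNA molecule) and at most 1% of their UMIs in the hemoglobin genes. The 12% with the highest share of Col1a1, Col1a2 and Col3a1, 244 spots, were set aside as collagen-rich. The other 1792 spots were ranked by the share of Ankrd1, Flnc, Xirp2 and Nppb, the 90 spots of the top 5% were called border and the 896 spots of the bottom 50% were called remote. The series holds 9102 spots in 4 sections, so the border spots are 90 of 9102.

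Each section came from 1 adult female Hsd: ICR (CD1) mouse, 12 weeks old, given isoflurane and buprenorphine for surgery, whose left anterior descending (LAD) coronary artery had been tied for good, and the hearts were taken 1, 4, 7 or 14 days later. No transgene, further treatment or sham operation is named for these 4 mice, and the hearts were cut until injured tissue was seen. A spot collects RNA from several cells, so it is a small region and not a cell. Spot positions were not used, and "border" therefore means rich in the 4 ranking genes and not a measured distance from the infarct. With 1 section per day there was no replicate and no p-value was computed. Intervals are exact 95% intervals of the UMI counts and cover counting error only.

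When an infarct replaces myocardium with scar, the surviving cardiomyocytes next to it carry more wall stress and turn on genes that the fetal ventricle uses, among them the natriuretic peptides Nppa and Nppb, skeletal α-actin (Acta1) and the slow β-myosin heavy chain (Myh7). Ankrd1 is a titin-associated ankyrin-repeat protein of the sarcomere and nucleus, filamin C (Flnc) crosslinks actin at the Z-disc, and Xirp2 binds actin at intercalated discs. The same cells commonly lower the genes of mitochondrial fuel use and of electrical repolarization.

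The promoter windows of 2 ranking genes and of 2 genes that the ranking did not use are shown so that the transcripts described below can be placed in the genome. Each runs from 250 bases before to 50 bases after the RefSeq start (GRCm38.p6, the same build as mm10), 5′ to 3′ on the strand of the gene. Capitals mark the MCAT element CATTCC on either strand and the CArG box, which are the sites bound by TEAD factors and by serum response factor. No searched motif overlapped another in these windows.
Nppb, chr4:147985650-147985949, plus strand: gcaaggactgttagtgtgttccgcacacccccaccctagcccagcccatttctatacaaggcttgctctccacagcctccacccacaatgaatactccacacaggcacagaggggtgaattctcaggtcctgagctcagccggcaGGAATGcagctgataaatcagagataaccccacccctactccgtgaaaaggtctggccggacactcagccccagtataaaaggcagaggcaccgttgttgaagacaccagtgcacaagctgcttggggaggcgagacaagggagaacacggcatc
Ankrd1, chr19:36119795-36120094, minus strand: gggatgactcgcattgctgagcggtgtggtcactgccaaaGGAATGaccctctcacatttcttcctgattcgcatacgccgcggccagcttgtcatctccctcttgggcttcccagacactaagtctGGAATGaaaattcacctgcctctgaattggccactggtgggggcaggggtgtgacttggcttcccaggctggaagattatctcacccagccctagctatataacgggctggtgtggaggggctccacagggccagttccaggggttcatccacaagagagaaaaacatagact
Nppa, chr4:148000472-148000771, plus strand: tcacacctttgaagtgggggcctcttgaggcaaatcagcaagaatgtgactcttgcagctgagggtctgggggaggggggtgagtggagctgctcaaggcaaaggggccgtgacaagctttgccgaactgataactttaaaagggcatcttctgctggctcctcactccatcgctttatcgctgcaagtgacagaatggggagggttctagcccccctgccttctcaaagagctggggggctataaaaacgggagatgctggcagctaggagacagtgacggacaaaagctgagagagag
Acta1, chr8:123894726-123895025, minus strand: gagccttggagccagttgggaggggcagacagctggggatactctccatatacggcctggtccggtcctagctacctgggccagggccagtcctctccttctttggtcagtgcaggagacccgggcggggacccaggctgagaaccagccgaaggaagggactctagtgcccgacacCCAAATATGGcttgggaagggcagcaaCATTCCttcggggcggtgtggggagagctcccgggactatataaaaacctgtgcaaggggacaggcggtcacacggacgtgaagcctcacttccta

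Nppb held 1 MCAT element, Ankrd1 held 2, Acta1 held 1 with 1 CArG box, and no searched motif was in the Nppa window. Of the other ranking genes, which are not printed, each of the 2 windows of Flnc held 1 MCAT element and the window of Xirp2 held 0, with 1 AP-1 site. Over all 32851 windows of the table, 14.7% held an MCAT element, 1.63% a CArG box and 7.81% the AP-1 site TGANTCA. Of the 15 genes with the highest border to remote ratio, described below, 11 had a window. An MCAT element was in 3 of them (Acta1, Mybpc2 and 1 of the windows of Myh7), a CArG box in 1 (Acta1) and an AP-1 site in 0. A match of letters describes these windows and shows no binding.

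The ranking rested mainly on Ankrd1. In the border spots it gave 2223 of the UMIs of the 4 genes, or 77.4%, and was found in 90 of 90 spots. Nppb gave 11.9% and was found in 74 spots, Xirp2 in 64 and Flnc in 67. All 4 genes were present in 37 border spots and at least 3 of them in 81. The share of the 4 genes ran from 0.333% to 1.18% of the UMIs in border spots, with a median of 0.485%, and from 0% to 0.107% in remote spots, with a median of 0.066%. The last spot inside the border group had 0.333% and the first outside had 0.330%, so the edge of the group is a cut in a continuous range. Each of the 4 genes was also left out of the ranking in turn and then measured, as a description. Without Ankrd1, 51 of the 90 spots chosen were in the main border group. Without Nppb, Xirp2 or Flnc, 82, 89 and 87 of 90 were. The 4 genes were picked with these data known, so the values do not test whether they went together. The left-out gene was higher in the border spots chosen by the other ranking genes by a log2 ratio of 2.67 for Nppb (2.46 to 2.88), 1.93 for Ankrd1 (1.84 to 2.01), 1.63 for Xirp2 (1.37 to 1.88) and 0.76 for Flnc (0.49 to 1.01). Among the 90 border spots themselves, Ankrd1 and Nppb had a Spearman coefficient of -0.13. Picking spots by the sum of the 4 genes by itself pushes such a value down, so it does not show whether the genes went together.

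The border spots lay close to the collagen cut. Of the 90, 68 (75.6%) fell between the top 12% and the top 25% of the section by collagen share, 13 between 25% and 50%, and 9 in the lower 50%. Their collagen share had a median of 0.237%, with a highest value of 1.07%, against a median of 0.0327% in remote spots, and 61 of the 90 were above 0.122%, the 95th percentile of the remote spots. They also held fewer UMIs, with a median of 5993 per spot against 8865.5 in remote and 1259 in collagen-rich spots. Mitochondrially encoded transcripts made up a median of 27.5%, 35.9% and 4.67% of the UMIs of these groups. The 4 cardiomyocyte markers Myh6, Myl2, Tnnt2 and Actc1 summed to a median of 356 per 10000 UMIs in border spots, 385 in remote and 73.1 in collagen-rich spots, so by this measure the border spots were mostly myocardium. The scar markers Postn, Fn1, Sparc and Dcn summed to medians of 25.4, 6.14 and 168. In pooled spots more cells of a type and more RNA per cell cannot be told apart.

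**Figure D1:**
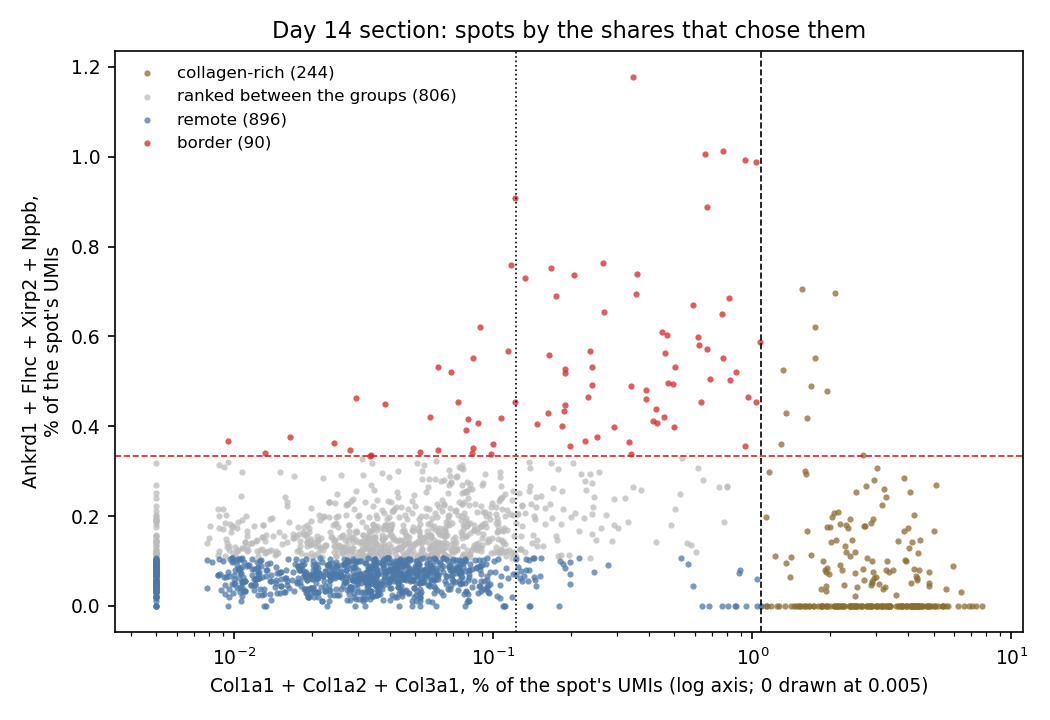
Each point is 1 spot of the day 14 section, with the share of the 3 collagen genes on a log axis (% of UMIs) against the share of the 4 ranking genes (% of UMIs). The dashed vertical line is the collagen cut of 1.08%, the dotted line is the remote 95th percentile of 0.122% and the dashed horizontal line is the border cut of 0.333%, and 61 of the 90 border spots (red) lie to the right of the dotted line.

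Border and remote spots were then compared over the genes that were not used to choose them. Levels are UMIs per 1000000 UMIs of the pooled spots (CPM). Among 6210 genes with at least 10 CPM over the ranked spots, 665 (10.7%) were at least 2-fold higher in border spots and 112 (1.8%) at least 2-fold lower. The median gene was already higher by 0.30 on the log2 scale, which is the level to read any list against. When mitochondrial and hemoglobin UMIs were left out of the base of CPM, 7741 genes reached 10 CPM and the median was 0.15. Of the genes past 2-fold 67.3% were then higher in place of 85.6%, and 410 of the 646 higher genes were among the 665. The change in split thus includes the added scarce genes. Centred on the median gene, the split was 52.5%. These choices shift every log2 ratio down by the same step, Acta1 from 3.23 to 3.06 and 2.93 and Ech1 from -0.81 to -0.98 and -1.11, so genes and lists between 0 and 0.30 change sign when centred. All of these values describe spots picked on genes of the same contrast, and they do not support the ranking.

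Nppa, atrial natriuretic peptide, had the highest ratio. It ran from 0 to 335 per 10000 UMIs in border spots with a median of 3.72, and from 0 to 68.6 in remote spots with a median of 0. Only 56 of the 90 border spots held a Nppa UMI, and 16 of them were above every remote spot. Pooled, it stood at 2076 CPM (1960 to 2197) in border and 26.1 CPM (22.6 to 29.9) in remote spots, a ratio of 79.7 (68.6 to 93.0). The transcript was unevenly spread, since the 10 border spots with the most Nppa UMIs held 58.6% of them.

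Acta1, skeletal α-actin, was spread more widely. It was found in 86 border spots, with a range of 0 to 86.3 and a median of 24.7 per 10000 UMIs, against a median of 2.06 and a highest value of 52.1 in remote spots. The groups overlapped, but 75 of 90 border spots were above the 95th percentile of the remote spots. The pooled level was 2918 CPM (2780 to 3060) against 311 CPM (299 to 324), a ratio of 9.37. The 10 spots with the most Acta1 UMIs held 30.5% of them.

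Myh7, the slow β-myosin heavy chain, ran from 0 to 125 with a median of 17.0 per 10000 UMIs in border spots and had a median of 2.07 and a highest value of 40.5 in remote spots. Its pooled level was 1904 CPM (1793 to 2020) against 243 CPM (232 to 254), a log2 ratio of 2.97. The main adult isoform Myh6 stood at 9155 against 10645 CPM, a log2 ratio of -0.22, so it remained at 0.86 times the remote level where Myh7 was at 7.84 times. The 2 myosins share long stretches of sequence, as do Acta1 and Actc1 (log2 ratio 0.18), and how reads in shared stretches were counted was not examined.

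Clu, the secreted chaperone clusterin, was present in 88 border spots with a median of 15.3 per 10000 UMIs (0 to 71.1), against 3.0 (highest 42.9) in remote spots, and 13 border spots exceeded all remote spots. Its pooled level was 1624 against 340 CPM, a log2 ratio of 2.26. Of the 14 ventricular stress genes listed, 7 were measured, 6 of them were at least 2-fold higher and the median log2 ratio was 2.26, against 10.7% and 0.30 for all genes. With the top 25% by collagen dropped or after thinning to 1000 UMIs 4 of the 7 were, and with the top 50% dropped 3. Thinning evens out depth and also leaves fewer UMIs of the ranking genes per spot. The parts of these in the smaller counts were not tested apart. A smaller thinned count, here and below, therefore does not show whether a difference was absent. Of all genes 2.35%, 2.10% and 2.61% were at least 2-fold higher in these settings. Besides Nppa, Acta1, Myh7 and Clu, the 2 past 2-fold in the full border group were Tnfrsf12a, the receptor of TWEAK, at 2.09 (128 against 30.1 CPM) and Ccn2, connective tissue growth factor, at 2.14 (146 against 32.9 CPM). Enah, an actin regulator, had 0.68. Below the 10 CPM limit, Gdf15, a stress cytokine, had 24 UMIs in 14 border spots (41.6 CPM) and 7 UMIs in the remote spots (0.907 CPM).

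The list of proteins of the Z-disc and of titin's surroundings differed less. Of 22 measured, 3 were at least 2-fold higher, a share near the 10.7% of all genes, 0 were lower, and the median log2 ratio of 0.39 was near the 0.30 of all genes. The 3 were Ankrd23, a titin-binding relative of Ankrd1, at 1.66 (601 against 191 CPM), the actin-associated Synpo2l at 1.24 (106 against 44.7 CPM) and the LIM protein Fhl1 at 1.14 (194 against 87.9 CPM). Desmin (Des), the intermediate filament that ties Z-discs together, was at 1459 CPM (1362 to 1561) against 765 CPM (746 to 785) and stayed just short of 2-fold at 0.93. The small heat shock protein αB-crystallin (Cryab) and the muscle LIM protein Csrp3 both had 0.14, under the median gene.

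Adult contractile and calcium genes differed little. Of 12 sarcomere genes 0 passed 2-fold in either direction, where 10.7% of all genes were higher and 1.8% lower. Their median was 0.01, with a range from -0.41 for Tnni3, cardiac troponin I, to 0.39 for Mybpc3, and 11 of 12 were below the median gene. Of 13 calcium handling genes 0 passed, with a median of 0.03, and 11 of 13 were below the median gene. Atp2a2, the calcium pump SERCA2, was at 6101 CPM (5901 to 6306) against 7752 CPM (7690 to 7814), a log2 ratio of -0.35, and no border spot was above the remote 95th percentile. The ryanodine receptor Ryr2 had -0.31 and calsequestrin Casq2 0.03.

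Of 16 measured ion channel and gap junction genes, 4 were at least 2-fold lower (1.8% of all genes were) and 0 higher. Their median was -0.38, and 15 of 16 were below the median gene. The calls depended on the choice of border group. They numbered 1 of 16 when the top 25% or the top 50% by collagen was dropped (1.35% and 3.21% of all genes were lower). After thinning to 1000 UMIs they were 0 of 16, with a median of -0.07 (1.48% of all genes). In the 29 low-collagen border spots described below they were 4 of 16, with a median of -0.32 (6.92% of all genes). With mitochondrial and hemoglobin UMIs left out of the base they were 5 of 16 (4.06% of all genes). Kcnj2, the inward rectifier that sets resting potential, had 2 UMIs in border spots and 203 in remote spots, a ratio of 0.132 (0.0158 to 0.482). Scn4b, a sodium channel β subunit, had 5 and 247 UMIs, a ratio of 0.271 (0.0871 to 0.640). Kcnj3 and Kcnd2, which carry acetylcholine-gated and transient outward potassium current, had log2 ratios of -1.04 and -1.01 on 8 and 6 border UMIs, and the ratio of Kcnd2 had an interval of 0.179 to 1.10. The gap junction gene Gja1 had 0.18. At this depth the values of these 4 scarce transcripts rest on few molecules.

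Genes of mitochondrial fuel use had list medians below 0. No single member passed 2-fold, where 10.7% of all genes were higher and 1.8% lower. The median log2 ratio was -0.41 over 24 fatty acid genes, -0.35 over 21 genes of the citrate cycle and pyruvate dehydrogenase, -0.43 over 17 of branched-chain amino acid breakdown, -0.22 over 79 nuclear subunits of oxidative phosphorylation and -0.33 over 12 mitochondrially encoded transcripts. Below the median gene were 24 of 24, 21 of 21, 17 of 17, 78 of 79 and 12 of 12. With the top 25% by collagen dropped, the list medians in the same order were -0.18, -0.12, -0.33, -0.08 and -0.14. After thinning to 1000 UMIs they were -0.14, -0.14, -0.19, -0.08 and -0.12. The median gene was at 0.14 and 0.12 in these settings. Acaa2, which makes the last cut of β-oxidation, had 556 CPM (497 to 620) against 962 CPM (940 to 984). Ech1, which handles unsaturated fatty acids, had 1066 CPM (983 to 1153) against 1862 CPM (1832 to 1893), with a median per spot of 10.4 against 18.3 per 10000 UMIs. Pdk4, the kinase that holds back pyruvate oxidation, had -0.94. Fabp3 and Cpt1b, the fatty acid binding protein and the gate of mitochondrial import, stood at -0.04 and 0.11. The 19 glycolysis genes had a median of 0.07, and the highest was Pfkp at 0.87.

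**Figure D2:**
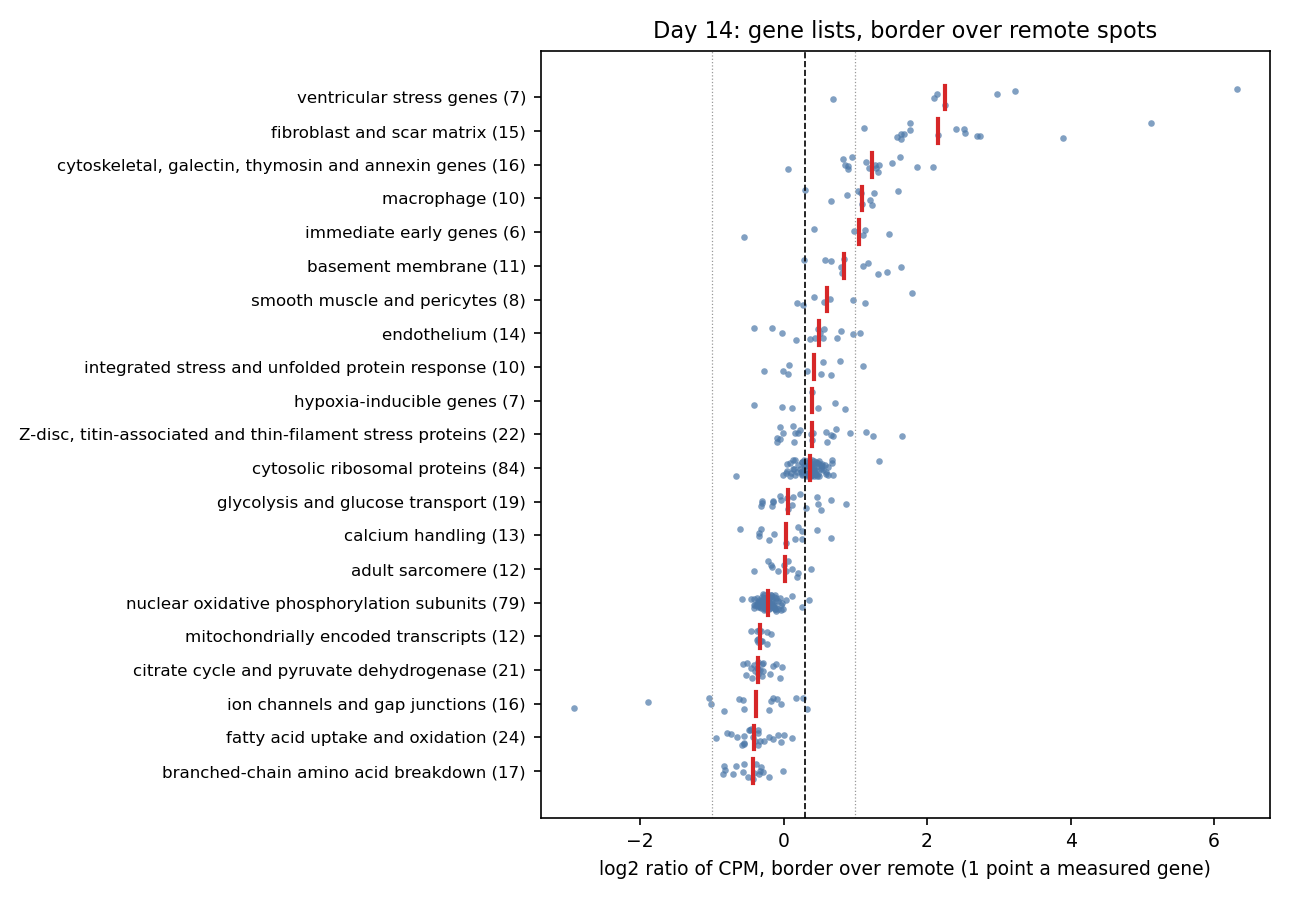
Each point is a measured gene of a list (number measured in parentheses), with its log2 ratio of CPM in border over remote spots on the x axis. Red bars are list medians, the dashed line is the median of all 6210 genes (0.30) and the dotted lines mark 2-fold, and the lists run from -0.43 for branched-chain amino acid breakdown to 2.26 for ventricular stress genes.

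Several of the genes at the bottom had few or no border UMIs. By the upper bound of the ratio, the lowest 15 were Cmtm8, Cenpf, Kcnj2, Mylk4, Gm15543, Ogdhl, Gm31013, Pcp4l1, Angpt1, Ech1, Fhod3, Lingo3, Scn4b, Acss1 and Acaa2. Cmtm8 had 0 UMIs in border spots against 139 in remote spots, at least 3.47-fold lower when 3 counts over the group are taken as the floor. Cenpf, a centromere protein gene, had 3 UMIs against 291, a ratio of 0.138 (0.0283 to 0.407). Angpt1, the ligand of the endothelial receptor Tek, had 4 UMIs against 224, a ratio of 0.239 (0.0645 to 0.620). Mylk4, a myosin light chain kinase of muscle, stood at 22.5 CPM (12.0 to 38.5) against 76.2 CPM (70.2 to 82.6), and Fhod3, a formin that builds sarcomeric actin, at 52.0 CPM (35.1 to 74.2) against 120 CPM (113 to 128). Acss1, mitochondrial acetyl-CoA synthetase, was at 100 against 204 CPM.

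Matrix genes filled most of the top. Of the 15 genes with the highest lower bound, Nppa, Acta1, Myh7 and Mybpc2 are muscle genes, and the other 11 were Postn, Mfap4, Col8a1, Eln, Pi16, Col14a1, Bgn, Serpinf1, Fstl1, Aspn and Mfap5, which encode extracellular or secreted proteins. Postn, periostin, was found in 66 of 90 border spots and stood at 485 CPM (430 to 545) against 13.9 CPM (11.4 to 16.8), a log2 ratio of 5.13. In collagen-rich spots it stood at 1707 CPM. Bgn, biglycan, had 996 CPM in border, 153 in remote and 5022 in collagen-rich spots, and Eln, elastin, had 125, 12.6 and 1330 CPM. All 15 measured genes of the scar matrix list were at least 2-fold higher (10.7% of all genes were), with a median of 2.16, from Dcn at 1.13 to Postn. Its count was 3 of 15 with the top 25% by collagen dropped or after thinning, and 4 of 15 in the low-collagen border spots described below. The share of all genes that high in these settings was 2.35%, 2.10% and 7.21%. Each border spot held between 5.65 and 324 UMIs of this list per 10000, with a median of 53.7, against medians of 11.1 in remote and 331 in collagen-rich spots.

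Macrophage genes also stood between the remote and the collagen-rich level. Of 10 measured, 7 were at least 2-fold higher (10.7% of all genes were), with a median of 1.09, led by Cd74 at 1.59 and the receptor Csf1r at 1.26. The markers C1qa, C1qb, Cd68 and Lyz2 summed to 490 CPM in border, 252 in remote and 5844 in collagen-rich spots, and single spots ran from 0 to 25.1 per 10000 UMIs in border and from 0 to 322 in remote spots. The macrophage count was 1 of 10 with the top 25% by collagen dropped, and 0 with the top 50% dropped (1 lower, median 0.03) or after thinning to 1000 UMIs. In the 29 low-collagen border spots described below it was 3 of 10. The share of all genes at least 2-fold higher was 2.35%, 2.61%, 2.10% and 7.21% in these settings. Of 16 cytoskeletal, galectin, thymosin and annexin genes 10 were at least 2-fold higher, again against 10.7% of all genes, with a median of 1.23, and Anxa1 (2.08), Tmsb10 (1.87) and Vim (1.51) were among them. That count was 1 of 16 with the top 25% or 50% by collagen dropped and in the 29 low-collagen border spots, and 0 of 16 after thinning. Basement membrane genes had 5 of 11 at least 2-fold higher, against 10.7% of all genes, and a median of 0.84, and 0 of 11 in each of those settings. Endothelial genes had 1 of 14 (Vwf, 1.06), also against 10.7% of all genes, and a median of 0.50. Their summed level per spot had medians of 15.04 per 10000 UMIs in border, 14.0 in remote and 14.7 in collagen-rich spots. Markers of the atrium, where Nppa is made at rest, were at or near 0 in both groups. Myl7, Sln and Bmp10 had 0 UMIs in border and remote spots. Myl4 had 5 UMIs in border spots (8.66 CPM) and 17 in remote spots (2.20 CPM). The part of collagen-rich tissue in the differences was not tested beyond the measurements that follow.

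The levels were followed along the whole rank to see where each gene began to differ. Acta1 stood at 311 CPM in the bottom 50%, 722 in the spots between 50% and 80%, 1164 between 80% and 90%, 1767 between 90% and 95% and 2918 in the top 5%. Nppa did not climb in even steps. It was at 26.1 CPM in the bottom 50%, 24.5 in the next step, then 242 and 151, and 2076 CPM in the top 5%. Postn went through 13.9, 23.1, 51.5, 121 and 485 CPM, while the median collagen share of these steps was 0.0327%, 0.0391%, 0.0579%, 0.0756% and 0.237%. Ech1 went down at each step, at 1862, 1653, 1445, 1246 and 1066 CPM, whereas Fabp3 stayed between 6295 and 6739 CPM.

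**Figure D3:**
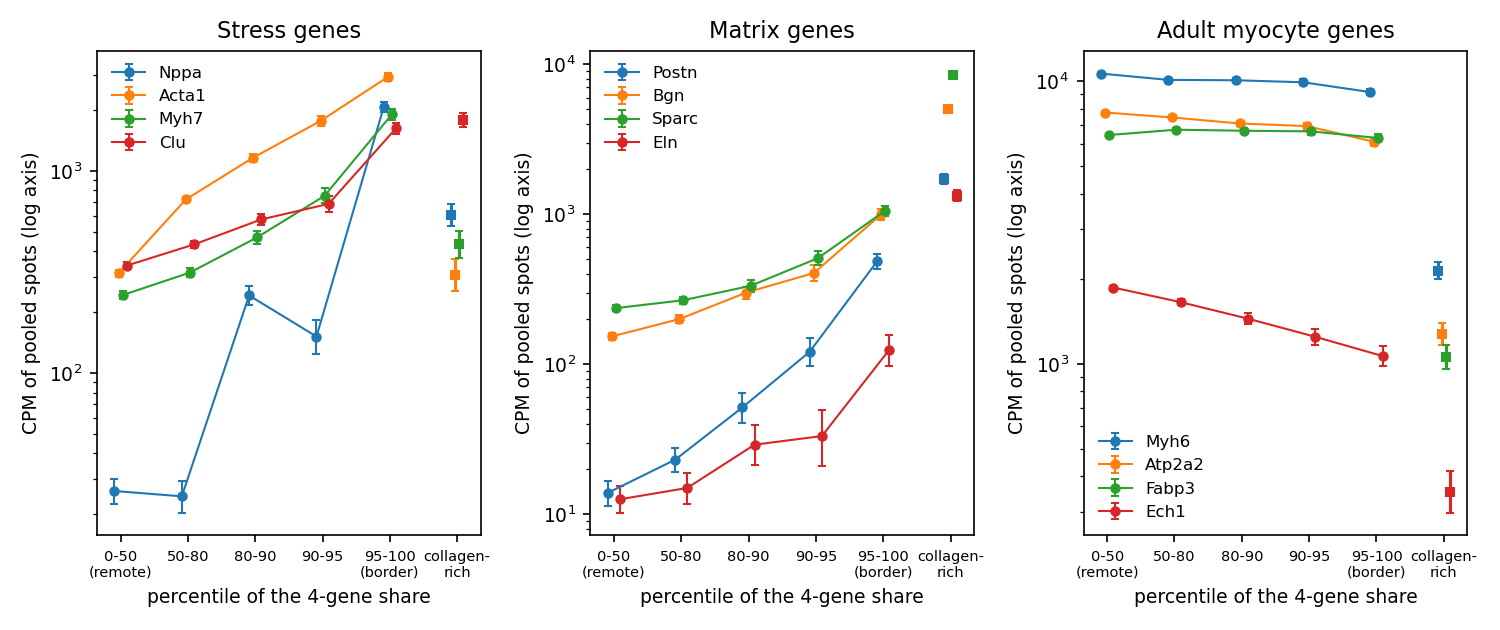
CPM of pooled day 14 spots (log axis) in 5 steps of the percentile of the 4-gene share, with the 244 collagen-rich spots beside them as squares, and exact 95% counting intervals as bars. Acta1 climbs at every step from 311 to 2918 CPM, and Nppa is at 26.1 and 24.5 CPM in the first steps and at 2076 CPM in the top 5%.

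Border spots were therefore divided by collagen, a division chosen after seeing the data. The 29 border spots at or under the remote 95th percentile held a median of 8998 UMIs and the 61 above it a median of 4737. Acta1 differed less between these groups than Nppa, without overlap of the intervals, at 2572 CPM (2383 to 2773) in the low-collagen and 3212 CPM (3016 to 3417) in the high-collagen border spots. Nppa stood at 241 CPM (186 to 308) and 3639 CPM (3430 to 3857), and 1134 of its 1198 border UMIs were in the high-collagen spots. Myh7 had 1043 CPM (924 to 1174) and 2638 CPM (2460 to 2824), and Clu 866 and 2269 CPM. Mybpc2, fast myosin-binding protein C, was at 64.0 CPM (37.3 to 103) and 35.3 CPM (17.6 to 63.2), with overlapping intervals. It had only 28 border UMIs, and the 10 spots with the most held 71.4% of them. Eln had 3 UMIs in the low-collagen border spots, 11.3 CPM (2.33 to 33.0), against 12.6 CPM in remote spots. Timp1, a metalloproteinase inhibitor that is of interest to the study and falls below the 10 CPM limit, had 1 and 42 UMIs. Of genes lower in the border, Ech1 stood at 1254 and 905 CPM and Atp2a2 at 6975 and 5356 CPM, in each case with the low-collagen spots nearer to the remote level.

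Rank correlations across the same 90 border spots are given as descriptions because all spots share 1 section and their UMIs. Those with the collagen share restate the division by collagen and add no separate evidence for it. The Spearman coefficient with the collagen share was 0.63 for Clu, 0.48 for Nppa, 0.46 for Myh7 and 0.02 for Acta1. Nppa and Nppb had 0.54 with each other, Nppa and Clu 0.53, and Nppa and Acta1 0.12. Nppb was part of the ranking that chose these spots, so its value with Nppa does not show whether these genes went together. Nppa had -0.55 with Myh6. The fatty acid list had -0.72 with the collagen share and 0.63 with Myh6. The collagen share also had -0.73 with the number of UMIs of a spot, so depth differed along with collagen.

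Which spots were called border depended on thinning, on the UMI minimum and on the collagen limit. When every spot was thinned to 1000 UMIs before ranking, 24 of 85 border spots were among the 90, and 129 genes were at least 2-fold higher and 91 lower. In those spots Nppa had a log2 ratio of 4.44, Acta1 2.04, Myh7 1.56, Clu 0.97 and Ech1 -0.40. A minimum of 1000 UMIs per spot left 47 of 85 shared, with 234 higher and 77 lower. That minimum fell mostly on collagen-rich spots, since 90 of the 244 had under 1000 UMIs, against 2 of the 90 border spots. The collagen cut takes a fixed share of the spots kept, so it then reached spots of lower collagen. Thinning gave groups of the same size, 85 border and 850 remote spots. The parts of depth and collagen in these settings were not tested apart. With the top 25% by collagen dropped, only 22 of 76 border spots were among the 90, and 143 genes were at least 2-fold higher and 82 lower. With the top 50% dropped, 9 of 51 were shared, the highest collagen share was 0.0451%, and 156 genes were higher and 192 lower. The share of the ranking genes in these 51 spots was lower too, from 0.223% with a median of 0.269%. In the full border group it ran from 0.333% with a median of 0.485%. Collagen share and ranking share thus fell together, and their parts were not tested apart. In that collagen-poor myocardium the median mitochondrial share was 34.6% in border and 36.7% in remote spots, and the median number of UMIs was 9579 and 8997. Acta1 had the highest lower bound there, at 1548 CPM (1440 to 1662) against 286 CPM (271 to 303), a log2 ratio of 2.43. Myh7 had 1.36 (578 against 226 CPM), Tnfrsf12a 1.52, Mybpc2 3.39 and Clu 0.87. Nppb, which was part of the ranking, had 3.05. Nppa had -0.49 on 5 border UMIs, and Timp1 and Eln had -0.40 and -2.02 on 1 border UMI each, on the other side of 0 from the full border group.

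The 15 genes with the highest lower bound in the collagen-poor spots were Acta1, Casq1, Ptgds, Myh7, Usp39, Ccl21a, Tnfrsf12a, Mgp, F3, Nmrk2, Tpm2, Snx21, Eif4enif1, Myot and P2rx5. Of these, Casq1, the skeletal calsequestrin, stood at 48.8 CPM (31.3 to 72.6) against 7.82 CPM (5.44 to 10.9), Nmrk2, a nicotinamide riboside kinase of stressed muscle, at 34.6 against 10.5 CPM, the Z-disc protein Myot at 79.3 against 31.9 CPM, and β-tropomyosin Tpm2 at 44.7 against 15.2 CPM. Ptgds, prostaglandin D2 synthase, stood at 1137 CPM (1045 to 1235) against 385 CPM (367 to 403). On the low side Cenpf and Angpt1 kept log2 ratios of -2.00 and -1.59, on 5 border UMIs each, and Ech1 had -0.48. Kcnj2 and Scn4b had 0.21 and 0.35, on 16 and 18 border UMIs. The median of the fatty acid list was -0.17 and that of the scar matrix list 0.48, with 1 of its 15 genes at least 2-fold higher. Of all genes 2.61% were that high in this setting.

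**Figure D4:**
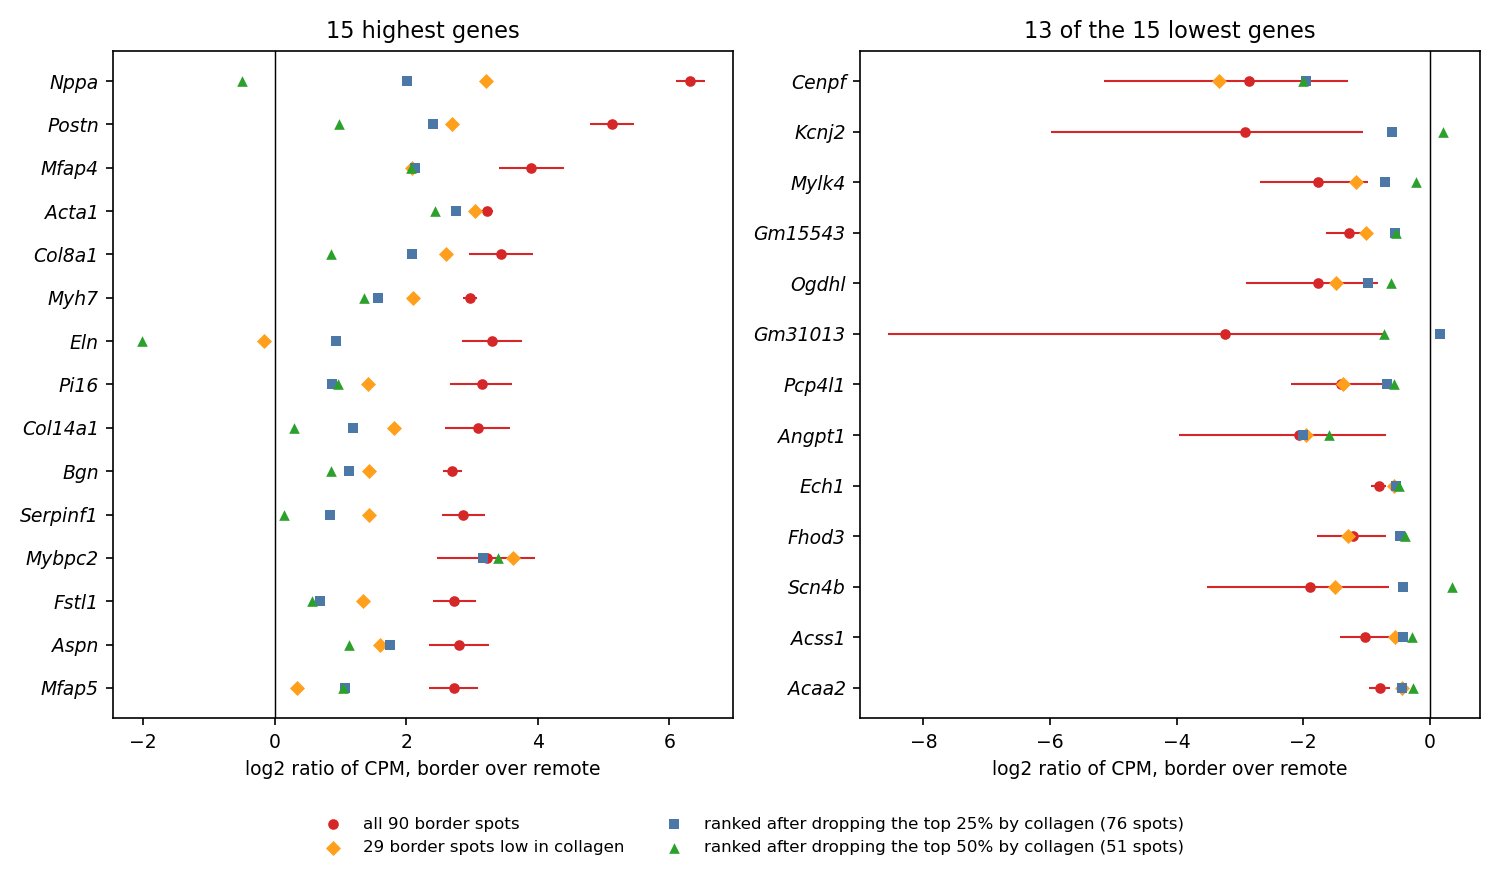
Log2 ratio of CPM in border over remote spots for the 15 highest and 13 of the 15 lowest genes, with exact 95% counting intervals for the 90 border spots (red), and the same ratio for the 29 low-collagen border spots and for ranks made after dropping the top 25% or 50% by collagen. Cmtm8 and Lingo3 had 0 border UMIs and are not drawn, nor are Kcnj2 and Gm31013 in the 29 spots. Acta1 and Mybpc2 stay between 2.43 and 3.63 under the choices drawn, whereas Nppa goes from 6.32 to -0.49. Over all settings Acta1 ran from 2.04 to 3.70 and Mybpc2 from 1.89 to 4.09.

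The same rule was applied to the sections of the earlier days to see what remained at day 14. These are different mice, 1 per day, and the days were not tested against each other. The border cut of the day 14 section, 0.333%, was reached by 36.3% of ranked spots on day 1. It was reached by 26.2% on day 4 and 34.8% on day 7, against 5.02% on day 14. The rule always takes 5% of spots, 83, 74 and 80 on days 1, 4 and 7, so on day 14 the same 5% reached down to a lower share of the ranking genes. The remote groups differed as well. The 95th percentile of their collagen share was 0.129%, 2.88% and 3.16% on days 1, 4 and 7, against 0.122% on day 14. The remote spots of days 4 and 7 thus included some rich in collagen, and their part in the ratios of those days was not tested. Of the genes measured, 28.1%, 16.9% and 14.5% were at least 2-fold higher on days 1, 4 and 7, and 10.5%, 3.02% and 3.58% at least 2-fold lower, against 10.7% and 1.8% on day 14.

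Among Nppa, Clu, Myh7 and Acta1, the earlier border spots were also at least 2-fold above remote, except for Myh7 on day 1 and Acta1 on day 7. Ankrd1, whose high border level the ranking fixes on every day, stood at 9940, 5328, 7553 and 3852 CPM in the border spots of days 1, 4, 7 and 14. Nppa, which the ranking did not use, had 4871, 30974, 9136 and 2076 CPM, with log2 ratios of 5.75, 5.69, 5.51 and 6.32, and its remote level also differed, at 90.6, 599, 199.9 and 26.1 CPM. Clu had log2 ratios of 3.43, 4.11, 4.00 and 2.26. For Myh7 they were 0.01, 2.86, 3.51 and 2.97 in the order of days. Acta1 had 5.19, 4.81, -0.82 and 3.23, and its day 7 value comes from a remote group that included 101 spots carrying 10 UMIs or more of the fast skeletal muscle list. Leaving such spots out of the section gave 2.94, with 15.6% of genes at least 2-fold higher and 3.35% lower.

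Other day 1 differences were much smaller on day 14. Hspb1 had log2 ratios of 4.21, 1.09, 0.48 and 0.66 on days 1, 4, 7 and 14, Cryab had 2.60, 0.51, 0.08 and 0.14, and Xirp1 had 3.05, 1.26, 1.08 and 0.24. Myh6 had -2.42, -0.997, -0.84 and -0.22. The median of the fatty acid list was -1.40, -1.29, -0.97 and -0.41. Of its genes 17 of 23, 16 of 23, 11 of 23 and 0 of 24 were at least 2-fold lower. Of all genes 10.5%, 3.02%, 3.58% and 1.8% were. The median of the oxidative phosphorylation list was -0.75, -0.60, -0.54 and -0.22. The scar matrix list stood at 1.63, 2.29, 1.83 and 2.16. Of the day 14 genes at least 2-fold higher and measured on both days, 349 were also past 2-fold on day 4, which is 53.1% of the day 14 and 42.4% of the day 4 genes. With day 7 the number was 271 (41.1% and 40.6%) and with day 1 it was 315 (48.5% and 21.8%), where 13.5%, 10.9% and 23.7% of the genes measured in both were higher on days 4, 7 and 1.

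**Figure D5:**
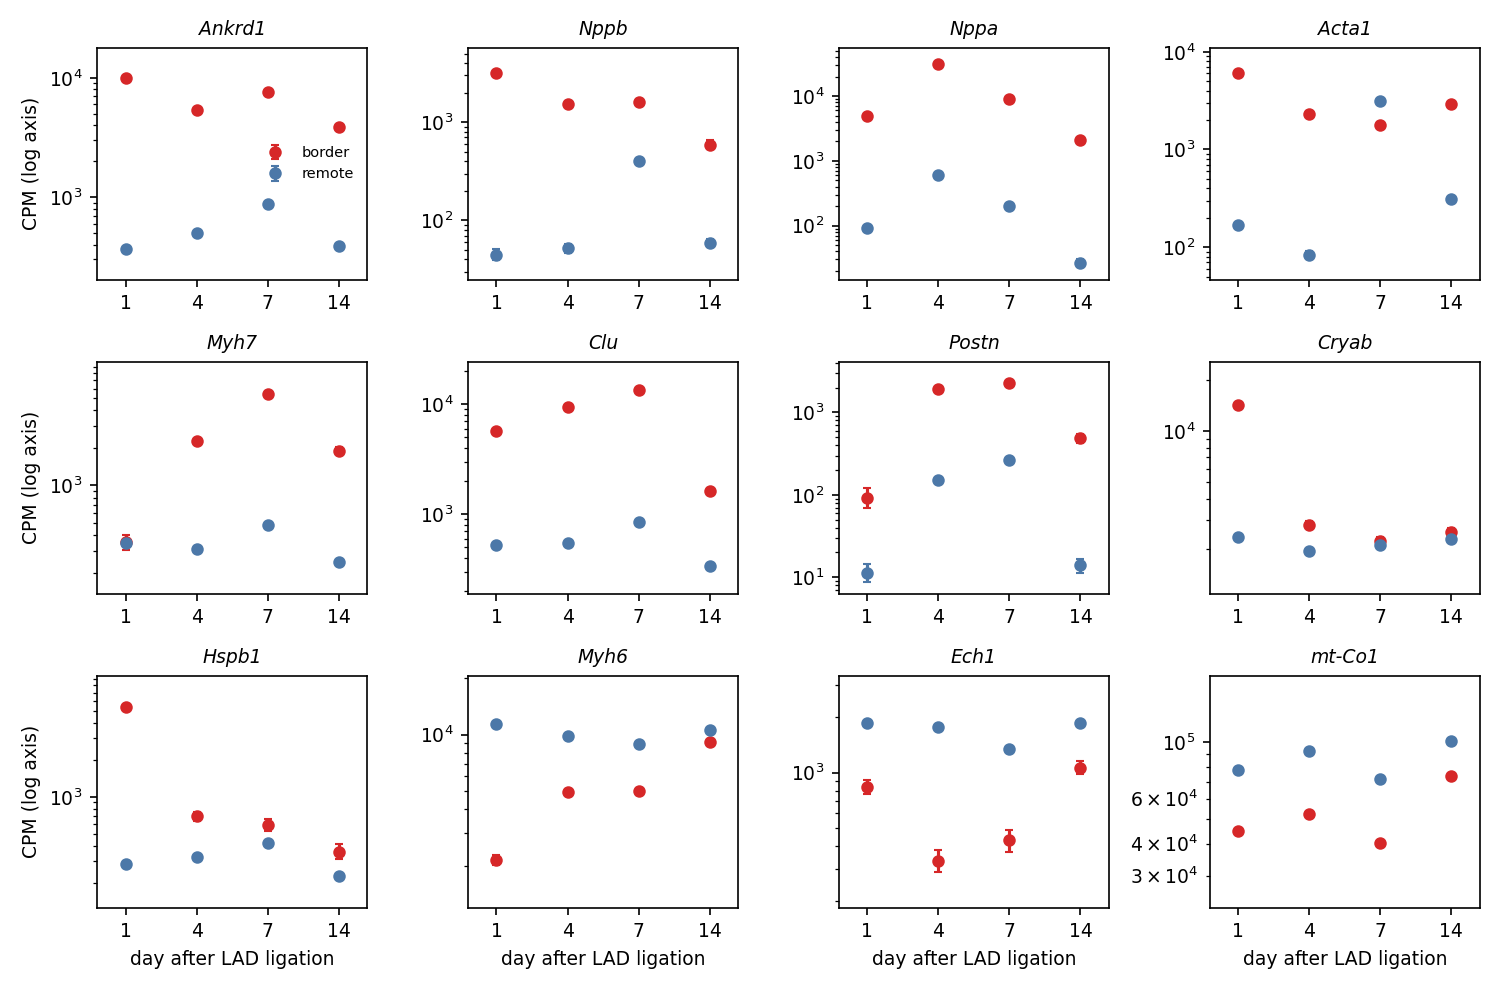
CPM (log axis) of 12 genes in border (red) and remote (blue) spots of the day 1, 4, 7 and 14 sections, each from 1 mouse, with exact 95% counting intervals. Nppa border levels run from 2076 CPM on day 14 to 30974 CPM on day 4, the Cryab log2 ratio is 2.60 on day 1 and 0.14 on day 14, and the day 7 remote level of Acta1 includes skeletal muscle spots.

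Ribosomal protein genes lay close to the median gene. Of 84 measured, 1 was at least 2-fold higher and 0 lower, where 10.7% of all genes were higher and 1.8% lower. Their median was 0.37 against 0.30 for all genes, and 58 of 84 were above the median gene. Rpl3 had 224 CPM (187 to 266) against 89.3 CPM (82.8 to 96.2), a log2 ratio of 1.32, and its muscle form Rpl3l had 163 CPM (132 to 199) against 257 CPM (246 to 269), a log2 ratio of -0.66. Rpl3 stood at 829 CPM in collagen-rich spots. Of the potential Timp1 receptors that the study lists, it names Lrp1, Cd63 and App as the main ones of myofibroblasts. They had 1.15, 0.83 and 0.95 in border over remote spots and were highest in the collagen-rich spots, at 893, 773 and 374 CPM. In low- and high-collagen border spots Lrp1 had 75.3 and 186 CPM, Cd63 143 and 167, and App 67.8 and 83.4. Their remote levels were 60.9, 87.6 and 39.5 CPM. Of the other receptors listed, Cd74 is given above, and Cd82 and Cd44 are not given.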

How the data were processed

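RNA of 10x Visium sections was measured in 4 hearts, 1 section per day. The authors deposited raw UMI counts per gene and spot, not normalized, for 32285 genes, made with Space Ranger 1.3.0 on mm10, with Seurat 4.1.1 named for later steps. The spots, genes and lists described were chosen with earlier results of these data known. From the counts, spots with over 1% of UMIs in 8 hemoglobin genes or under 500 UMIs were left out, and the border and remote groups were formed as described. Counts were summed per group and divided by the group's total of 577158 (border) or 7715003 (remote) UMIs. Poisson and conditional binomial 95% intervals are exact and cover counting error only. The rule for named genes took the 15 highest lower bounds and the 15 lowest upper bounds of the ratio among genes with 10 CPM, the ranking genes, and listed members. The sections share 1332 spot barcodes, since each slide area carries the same printed set. Code was run in Python 3.11.15 with scipy 1.17.1 and tested on simulated data. Gene coordinates are GENCODE on GRCm38 and promoters RefSeq on GRCm38.p6. Alternatives changed the spot filters, collagen limit, group sizes, ranking genes, depth and base of CPM. The value of 1 listed gene is not reported here.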

Additional observations from a re-analysis of the deposited data

Results flagged for a closer look

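Among the 15 highest and 15 lowest genes, 3 had a border to remote ratio at least 2-fold one way on day 14 and in the opposite direction in another section. Col14a1, a fibril-associated collagen, had a log2 ratio of 3.09 on day 14 and -2.01 on day 1, on 2 border UMIs that day. Aspn, the matrix protein asporin, had 2.81 on day 14 and -1.99 on day 1, also on 2 border UMIs. Mybpc2 had 3.23 on day 14 and -1.01 on day 7, where it had 2.72 once spots with fast skeletal muscle genes were left out. The share of all measured genes that did so is not given, so the count of 3 is a listing and not a result about these genes. The sections are 1 mouse each and these differences were not tested.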

How the results depend on the processing

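No paired analysis was possible because each day has 1 section and no replicate. Of 19 planned settings, most changed how many genes were past 2-fold, against 665 higher and 112 lower. The higher and lower counts were 1269 and 365 with the top 2.5% as border, 321 and 21 with the top 10%, and 156 and 192 with the top 50% by collagen dropped. They were 276 and 250 when centred on the median gene, 1196 and 275 at a minimum of 5 CPM (8512 genes measured), and 86 and 11 at 50 CPM (1696 genes). Only the higher count moved past 1.5 times with the top 25% by collagen dropped (143), a minimum of 1000 UMIs per spot (234), thinning to 1000 UMIs (129) and ranking without Ankrd1 (327). Only the lower count did so with the mean of the spots' own shares (172) and with nuclear genes as base (314 of 7741 genes). It alone also did so with the 29 low-collagen border spots (430), a setting added after seeing the data. Among named genes past 2-fold, log2 ratios changed sign with the top 25% by collagen dropped for Gm31013 (0.16) and Ccn2 (-0.040), and with the top 50% dropped for Nppa (-0.49), Eln (-2.02), Kcnj2 (0.21), Scn4b (0.35), Timp1 (-0.40) and C1qa (-0.0055). They did so without Ankrd1 for Scn4b (0.020), and in low-collagen border spots for Eln (-0.15), Ccn2 (-0.32), Timp1 (-0.60) and Fn1 (-0.046). The cause was not tested. Depth limits the genes with few border UMIs most. Cmtm8 and Lingo3, and any gene with 0 border UMIs under a setting, have no log2 value there.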

Other observations

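Immediate early genes, which cells switch on within minutes of a stimulus and which tissue handling can also raise, had 3 of 6 measured members at least 2-fold higher in the border, Ier2 at a log2 ratio of 1.47, Jun at 1.13 and Klf4 at 1.11, with a list median of 1.05, where 10.7% of all genes were that high. The count was 0 of 6 with the top 25% or 50% by collagen dropped and after thinning to 1000 UMIs, and 1 of 6 with nuclear genes as the base of CPM. The share of all genes that high in these settings was 2.35%, 2.61%, 2.10% and 8.35%. Smooth muscle and pericyte genes had 2 of 8, Tagln at 1.79 and Myh11 at 1.13, against 10.7% of all genes, and a median of 0.60. Their count was 3 of 8 with the top 25% or 50% by collagen dropped and 0 of 8 after thinning. Of 10 measured genes of the integrated stress and unfolded protein responses, 1 passed, Creld2 at 1.10, a share near the 10.7% of all genes. Their median was 0.42, with 0 of 10 after thinning. Hypoxia-inducible genes had 0 of 7 past 2-fold, where 10.7% of all genes were higher and 1.8% lower. Their median was 0.40 against 0.30 for all genes. Of the conduction and cell division lists 1 gene each was measured, Kcne1 at 0.92 and Pcna at 0.56, and the lists of neutrophils, atrium, fast skeletal muscle, mesothelium, adipocytes and Schwann cells had 0 measured genes.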
